A study of Mus musculus with 2 samples.

Results

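Enteroendocrine hormone and secretory granule genes were followed in single-cell RNA-seq of inflamed mouse colon. The genes were picked by symbol, 10 of the 55357 genes counted: the peptide hormone genes Pyy, Gcg, Insl5, Sct and Cck, the serotonin synthesis gene Tph1, the granule genes Chga and Chgb, the calcium sensor gene Scgn and the transcription factor gene Neurod1. The mice, 7 weeks old and free of specific pathogens, received for 6 days 3% dextran sulfate sodium (DSS), which damages the colonic epithelium and brings on colitis, and mid-colon was then dissociated for 3' droplet sequencing. The series forms 1 group of 2 libraries, repeats 1 and 2, here called libraries 1 and 2. Strain and sex are not given in the labels, nor is it stated that the repeats came from separate animals. P-values below thus measure only how much class differences varied between these libraries. That spread was estimated over all classes together and may be technical. No untreated colon was analysed here, and no value below describes an effect of DSS.

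Enteroendocrine cells are sparse hormone-secreting cells scattered through the gut epithelium. In the colon, the L cell makes peptide YY, glucagon-like peptides and insulin-like peptide 5 and acts on appetite, gut transit and insulin release, while the enterochromaffin cell makes serotonin with tryptophan hydroxylase 1 and acts on motility and sensation. Both store their products in dense-core granules built with chromogranins A and B, and both arise from progenitors that switch on Neurog3 and then Neurod1.

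Library 1 held 76622643 unique molecular identifiers (UMIs, counts of captured RNA molecules) in 6597 barcodes, and library 2 held 94204110 in 9611, with medians of 7234 and 6400 UMIs per barcode. After filtering, 5459 and 8461 barcodes were kept, of which 1869 (34.2%) and 1261 (14.9%) fell into clusters named epithelial-like from their markers. All class names below mean resemblance by markers in this sense. Between the libraries 18 barcode sequences were shared, and 1 of them belongs to the set described next.

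The RefSeq promoters of Pyy, Gcg, Cck and Sct, peptide hormone genes that shared barcodes below, are printed first, as the 250 bases before the RefSeq start (for Pyy, 1 of its 2; build GRCm38.p6), 5′ to 3′ on the gene's strand, with the letters CAGATG, a sequence bound by neurogenic basic helix-loop-helix factors such as NEUROD1, in capitals. The windows lie on the minus strand at chr11:102107833-102108082 for Pyy, chr2:62483654-62483903 for Gcg, chr9:121495695-121495944 for Cck and chr7:141279134-141279383 for Sct.
Pyy: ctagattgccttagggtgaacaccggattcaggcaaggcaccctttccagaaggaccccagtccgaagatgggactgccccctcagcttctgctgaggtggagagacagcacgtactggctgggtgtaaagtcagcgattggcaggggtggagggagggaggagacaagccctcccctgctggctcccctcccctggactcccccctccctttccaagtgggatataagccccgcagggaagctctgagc
Gcg: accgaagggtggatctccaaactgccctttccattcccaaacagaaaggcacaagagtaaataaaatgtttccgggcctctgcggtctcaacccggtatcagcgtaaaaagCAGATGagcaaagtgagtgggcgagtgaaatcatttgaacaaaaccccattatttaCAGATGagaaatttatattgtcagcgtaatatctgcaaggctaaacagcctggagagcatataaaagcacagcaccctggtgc
Cck: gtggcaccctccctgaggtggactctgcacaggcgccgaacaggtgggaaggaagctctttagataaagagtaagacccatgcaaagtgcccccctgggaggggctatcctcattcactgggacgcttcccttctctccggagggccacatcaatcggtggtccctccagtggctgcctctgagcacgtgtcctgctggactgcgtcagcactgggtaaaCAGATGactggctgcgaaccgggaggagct
Sct: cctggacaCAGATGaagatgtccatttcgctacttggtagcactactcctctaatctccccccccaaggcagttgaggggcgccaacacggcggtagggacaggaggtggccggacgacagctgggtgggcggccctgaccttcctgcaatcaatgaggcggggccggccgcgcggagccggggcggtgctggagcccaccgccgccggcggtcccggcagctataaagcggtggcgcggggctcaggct
CAGATG or its reverse complement CATCTG starts 139 and 83 bases before the Gcg start (positions -139 and -83), at -30 for Cck, at -242 for Sct and at -178 before 1 of the 2 RefSeq starts of Insl5. No match was found in the windows of Pyy, Tph1, Chga, Chgb, Scgn and Neurod1. The cAMP response element TGACGTCA was found for Chgb alone among the 10 genes, at -72. Of 32851 mouse promoter windows of 300 bases, read on both strands, 17.2% held the CAGATG motif and 1.79% held TGACGTCA. A match is a description of letters and not evidence of binding.

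In the GENCODE M21 annotation of the same build, Pyy spans chromosome 11 from 102106676 to 102107832, Gcg chromosome 2 from 62474530 to 62483650, Insl5 chromosome 4 from 103017872 to 103026842, Tph1 chromosome 7 from 46644641 to 46672537, and Sct chromosome 7 from 141278330 to 141279133. Cck lies on chromosome 9 from 121489824 to 121495694, Chga on chromosome 12 from 102554969 to 102565028, Chgb on chromosome 2 from 132781278 to 132795079, Scgn on chromosome 13 from 23953456 to 23991214, and Neurod1 on chromosome 2 from 79452521 to 79456751. All 10 are protein-coding genes, and Chga and Chgb are the only ones among them on the plus strand. The UMIs counted at these genes are whole-gene totals, so spliced forms were not told apart.

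Granule gene UMIs marked 39 epithelial barcodes. The set, defined as epithelial barcodes with Chga and Chgb UMIs summing to 5 or more, held 32 barcodes of library 1, 1.71% of its epithelial barcodes (exact 95% binomial interval 1.17 to 2.41), and 7 of library 2, 0.555% (0.223 to 1.14). Intervals cover counting error only. At the edge of the rule, 2 barcodes of library 1 held 5 such UMIs and none of library 2 did, while 3 and 5 epithelial barcodes held 3 or 4. At the other end, 13 and 3 barcodes held 100 or more. The set's median depth was 14654 and 20925 UMIs, against 17341 and 22761.5 in the other epithelial barcodes.

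A group of barcodes in library 1 stands apart from the rest of the set. In 12 of the 32 barcodes, Reg3b, an antimicrobial lectin gene, took 3.16% to 5.76% of UMIs (median 4.875%), against at most 0.529% in the other 20 and 0.0419% in library 2. With each set barcode thinned to 1615 UMIs and Reg3b left out, the chi-square of the 12, each against the pooled counts of the other Reg3b-rich barcodes, was 1.0 to 2.61 per degree of freedom (median 1.25). The other 20 of library 1 gave 1.51 to 16.6 against the same pool (median 2.50), so the ranges overlapped. All 12 held Chgb at 2420 to 7840 CPM (UMIs of a gene scaled to a common total), Tph1 at 4 UMIs or fewer and Neurod1 at 4 or fewer, at depths of 1615 to 14962 UMIs. A further 4 barcodes of library 1 with Reg3b at 2.97% of UMIs or more lay outside the set, 3 of them in unnamed clusters and 1 removed as a doublet. Other epithelial barcodes reached 2% Reg3b in 144 and 53 cases, of which 6 and 0 held any Chga or Chgb UMI. Whether the 12 are separate cells was not tested. Without them the set held 20 of 1857 epithelial barcodes of library 1 (1.08%, 0.659 to 1.66), and 27 in all.

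**Figure D1:**
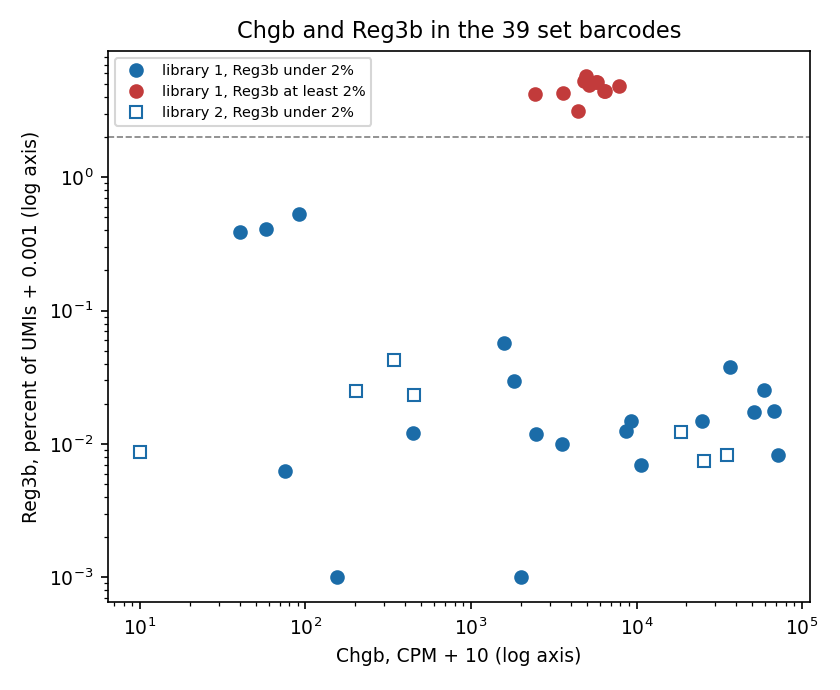
Reg3b as percent of UMIs (vertical, log axis) against Chgb CPM (horizontal, log axis) in the 39 set barcodes, with the dashed line at 2%. The 12 barcodes above the line are all of library 1 and lie between 2420 and 7840 Chgb CPM, while the other barcodes spread over a wide range of Chgb with Reg3b at 0.529% or less.

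Other barcodes of the set carried markers of further cell types. In library 2, 1 barcode held 231 UMIs of enteric neuron markers and 14 of epithelial markers, and another held 63 UMIs of lymphoid markers beside 154 epithelial. Without that pair, library 2 held 5 of 1259 (0.397%, 0.129 to 0.924). In library 1, 2 barcodes held 1147 and 830 neutrophil marker UMIs with Chga and Chgb at 7 and 5 UMIs. Goblet marker UMIs reached 2514 in a library 1 barcode with Chgb at 5, and 1360 in another of 88416 UMIs with Tph1 at 7. A library 1 barcode of 99288 UMIs held 1136. Summed over the set, the 12 epithelial markers reached 13800 and 8020 CPM, against 26600 and 26700 in other epithelial barcodes, and none of the 12 was at 0. Neuron markers summed to 109 and 1630 CPM, against 2.76 and 20.5, with 5 and 1 of the 10 at 0 in the set. Lymphoid markers reached 168 and 425 CPM, against 54.6 and 61.2, with 3 of 12 at 0 in each library. Neutrophil markers reached 2670 and 702 CPM, against 1100 and 1340, with 0 and 1 of 9 at 0. The part of these cell types in the results below was not tested, except where a value without the named barcodes is given.

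At 3 or more UMIs, Pyy, Gcg, Insl5 and Cck sat together in very few barcodes, apart from Tph1, while Sct occurred with both. Counting a hormone as present at 3 or more UMIs, Pyy, Gcg or Insl5 was held by 3 set barcodes of library 1 and 1 of library 2, here called peptide barcodes. Tph1 was held by 11 and 3, called serotonin barcodes, and no barcode of the 39 met both criteria. Without the Reg3b-rich barcodes the counts were 4, 12 and 0. Pyy with Gcg shared 4 barcodes, Pyy with Insl5 shared 3, Pyy with Cck shared 4, and Pyy with Sct shared 4. Tph1 with Sct shared 7 barcodes, and Tph1 with Cck shared 0. At 1 UMI per hormone, 2 of the 39 barcodes held both kinds, each with 1 Pyy UMI. With so few peptide barcodes, whether the absence of overlap differs from random placement was not tested.

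**Figure D2:**
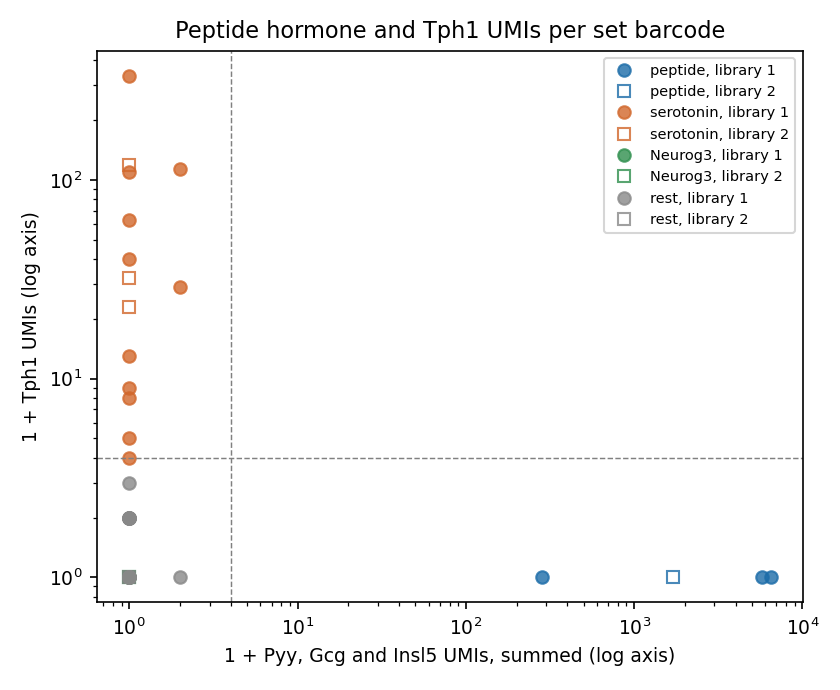
UMIs of Pyy, Gcg and Insl5 summed (horizontal, log axis, 1 added) against Tph1 UMIs (vertical, log axis, 1 added) in each set barcode, with dashed lines at the minimum of 3 UMIs. The 4 peptide barcodes lie along the horizontal axis and the 14 serotonin barcodes along the vertical one, the upper right field is empty, and the 5 barcodes with Neurog3 lie under the other points at the lower left corner.

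The 4 peptide barcodes each held a different mixture. In library 1, the barcode with most Pyy held 5053 UMIs of it with 1407 of Insl5, 143 of Cck, 41 of Sct and 4 of Gcg, out of 37041 UMIs in all. A second barcode of library 1 held Pyy at 2956 UMIs, Gcg at 1344, Insl5 at 1445, Cck at 128 and Sct at 4, out of 27835. The barcode of library 2 held Pyy at 1189 UMIs, Gcg at 380, Insl5 at 125, Sct at 213 and Cck at 4, out of 9002. These 3 thus carried all 5 peptide hormones at 3 UMIs or more, with Gcg at 4 UMIs in the first and 1344 in the second. The remaining barcode, of library 1, held Pyy at 276 UMIs, Gcg at 8, Cck at 6, Sct at 9 and no Insl5, out of 8882, and it was also the barcode with 157 of the 162 UMIs of Sst, the somatostatin gene, in that library. The library 2 barcode held 551 of the 610 UMIs of Ppy, the pancreatic polypeptide gene, and 83 of the 156 UMIs of Nts, the neurotensin gene, in library 2. Ppy was at 0 UMIs in the set of library 1, where Pyy counts were higher.

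The totals of Pyy, Insl5, Gcg and Cck rested on a handful of barcodes. The top 2 barcodes of any kind held 91.6% and 91.3% of a library's Pyy UMIs, which numbered 8748 and 3177. For Insl5 the top 2 held 97.1% of 2936 and 91.2% of 659 UMIs, for Gcg 93.3% of 1470 and 80.7% of 1318, and for Cck 89.7% of 302 and 88.0% of 333. Sct was spread more widely, with 18.3% of 366 and 42.2% of 768 UMIs in the top 2. In library 2 the leading barcode had been removed as a doublet by its Scrublet score: it held Pyy at 1712 UMIs, Gcg at 683, Insl5 at 476, Cck at 286, Sct at 111, Scgn at 10 and Tph1 at 0. With no doublets removed, the set held 45 barcodes, 5 peptide, 15 serotonin and again 0 with both. Chgb, by contrast, was spread more widely in library 1, where the top 2 barcodes held 30.7% of 7096 UMIs.

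The serotonin barcodes carried the strongest chromogranin counts. In library 1 their Tph1 ranged from 3 to 333 UMIs (median 28), Chgb from 47 to 1204 (median 542) and Chga from 3 to 194 (median 112). In library 2 the 3 barcodes held Tph1 at 22, 31 and 118 UMIs, Chgb at 965, 827 and 396, and Chga at 57, 122 and 163. Chgb summed to 22200 and 25000 CPM in serotonin barcodes, against 2100 and 444 in peptide barcodes. Chga summed to 4660 and 3910 CPM, against 1440 and 2780. The barcode with the highest Tph1, at 333 UMIs, held less Chgb (132 UMIs) than Chga (176), whereas in the other 13 Chgb exceeded Chga. Of the 11 in library 1, 2 are Reg3b-rich and held 4 and 3 Tph1 UMIs, the lowest values. The lymphoid-marked barcode of library 2 is the one with 118 Tph1 UMIs.

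Neurod1, Sct and Scgn cut across this division to different degrees. Neurod1 reached 477 and 801 CPM in serotonin barcodes and 475 and 778 CPM in peptide barcodes. Sct, the secretin gene, was at 319 and 286 CPM in serotonin barcodes and at 732 and 23700 in peptide barcodes, the last being the single barcode with 213 UMIs. Scgn, encoding secretagogin, was at 10.8 and 11.4 CPM in serotonin barcodes (3 UMIs and 1 UMI) and at 569 and 0 in peptide barcodes. In library 1 all 3 peptide barcodes held Scgn, at 25, 13 and 4 UMIs. Peptide barcodes number 1 in library 2, so its values have no spread.

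**Figure D3:**
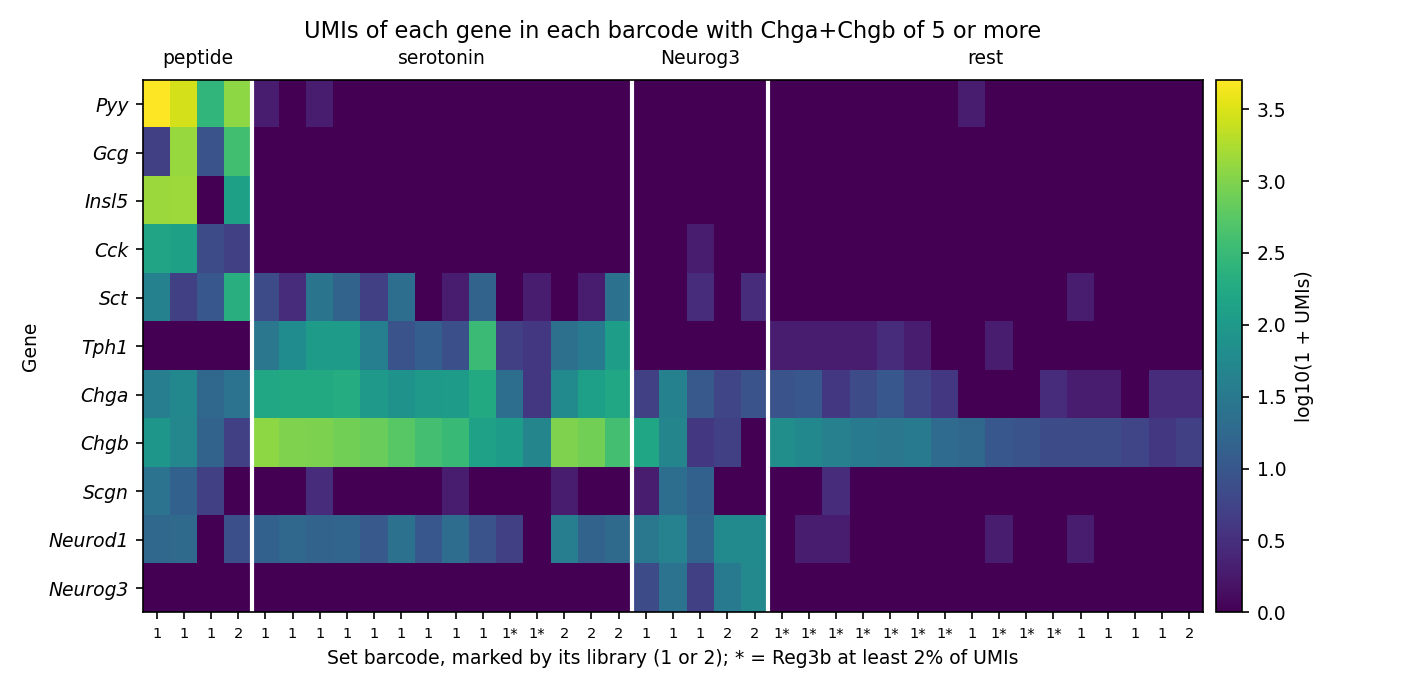
UMIs of the 10 genes and of Neurog3 (rows) in each of the 39 set barcodes (columns, marked by library, with a star for Reg3b at 2% of UMIs or more), as log10 of 1 plus the count. Pyy, Gcg, Insl5 and Cck fill the 4 columns at the left, Tph1 fills the next 14 with the brightest Chgb values, Neurog3 marks 5 columns with bright Neurod1, and 10 of the 16 columns at the right carry the star.

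Of the 21 set barcodes with neither kind of hormone, 5 held Neurog3, the gene of the endocrine progenitor factor, at 3 or more UMIs. In library 1 these held Neurog3 at 6, 25 and 4 UMIs and Neurod1 at 29, 43 and 15. In library 2 they held Neurog3 at 32 and 54 and Neurod1 at 56 and 58, with Chgb at 4 and 0. No peptide or serotonin barcode held a Neurog3 UMI, and the 5 include the highest Neurod1 count of each library's set. Scgn was at 1, 21 and 13 UMIs in the 3 of library 1, of which the last is a barcode of 99288 UMIs with 1136 goblet marker UMIs. Outside the set, 3 more epithelial barcodes with 10 or more Neurod1 UMIs held Neurog3 (41 with 48 UMIs in library 1, and 17 with 33 and 16 with 40 in library 2) at Chga and Chgb sums of 3, 0 and 1. The other 16 barcodes with neither hormone comprise 10 of the Reg3b-rich barcodes, the neuron-marked barcode and 5 barcodes of library 1 with Chgb at 47.9 to 439 CPM and no hormone or Tph1 UMI count above 1.

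Over all genes, peptide and serotonin barcodes were compared by their summed UMIs among the 4267 genes with 20 or more UMIs. This is a description with no test, since barcodes are not replicates. With sums under 3 UMIs set to that floor, 12 genes were at least 4-fold higher in peptide barcodes of both libraries and 5 in serotonin barcodes. With 0.5 UMI added to each sum instead, 32 and 20 were, many of them at 0 or 1 UMI in the single peptide barcode of library 2, and these are not described. Pyy, Gcg and Insl5, counted among the 12, and Tph1, counted among the 5, chose the barcodes, so nothing is read from their differences. Higher in peptide barcodes, after Pyy, Gcg, Insl5 and Cck, were Scg2, a granule protein gene (393 and 889 CPM against 3.59 and 34.3), Qpct, encoding glutaminyl cyclase (380 and 1220 against 21.5 and 45.7), Rgs4 (298 and 3330 against 25.1 and 0) and Gatm (678 and 778 against 68.2 and 0). Scg2 rests on 29 and 8 UMIs against 1 and 3. Higher in serotonin barcodes, beside Tph1 and Chgb, were Tac1, the substance P precursor gene (732 and 3430 CPM against 0 and 0), Dmbt1 (3120 and 1420 against 108 and 0) and Tmsb4x (1980 and 3430 against 258 and 333, the last from 3 UMIs). Without the Reg3b-rich barcodes the same 17 genes were found. Leaving out the neuron-marked and lymphoid-marked barcodes as well gave 13 and 3, with 15 of the 17 genes shared.

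Against the other epithelial barcodes, the set was higher in all 7 members that could be tested, where 1230 of all 13851 genes tested (8.88%) were higher and 2127 (15.4%) lower. Pyy stood at 9850 and 7660 CPM in the set of libraries 1 and 2, against 6.06 and 2.51 in other epithelial barcodes. Gcg stood at 1610 and 2450, against 1.52 and 0.642, and Insl5 at 3390 and 805, against 1.35 and 0.502. All 3 were higher in the set of both libraries, and each set value comes from 1 to 6 barcodes with any UMI.

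The remaining members were separated as well. Tph1 stood at 860 and 1100 CPM, against 0.641 and 0.279. Sct stood at 173 and 1550 CPM, against 4.54 and 8.98. Its fold was the smallest among the members tested in library 1 (38.2), while in library 2 that of Cck was smaller (92.3 against 172). Cck stood at 330 and 25.8 CPM, against 0.166 and 0.279, where the library 2 value is 4 UMIs of 1 barcode. Neurod1 stood at 308 and 1230 CPM, against 1.19 and 0.949. Scgn stood at 97.4 and 6.44 CPM (82 UMIs and 1), against 0.095 and 0.0279, and did not pass the filter on low counts. Chga and Chgb, which chose the set, stood at 1790 and 2460 and at 8170 and 14200 CPM, given as a description.

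With edgeR's quasi-likelihood test on UMIs summed per library and class, log2 fold changes ± SE were 10.48 ± 0.38 for Pyy (adjusted p = 4.66e-15), 10.42 ± 0.33 for Insl5 (4.66e-15) and 10.12 ± 0.44 for Gcg (1.26e-12). In the same edgeR test, they were 10.36 ± 0.39 for Tph1 (adjusted p = 1.07e-13), 8.99 ± 0.68 for Cck (1.25e-08), 8.50 ± 0.38 for Neurod1 (2.22e-12) and 5.79 ± 0.36 for Sct (8.41e-10), each higher in 2 of 2 libraries. The median log2 fold change over all genes tested was -0.14. With library sizes alone in place of TMM normalisation, the split over all genes was 2860 higher and 1011 lower and the median 0.41, and all 7 members again passed. Cck moved most when a library was left out, to 5.71 without library 1 and 10.18 without library 2. Neurod1 went to 9.58 and 7.38, and Sct to 6.69 and 4.64. All 7 also passed without the Reg3b-rich barcodes. A member at so low a level in other epithelium could pass the count filter through the set (Tph1 also through mast cells) and then only come out higher, so these p-values are no independent support. The set of library 2 was under the 10 barcodes the design asked for, so this fit is an addition to it.

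Low counts of Pyy, Chgb and Sct outside the set were set beside those of lymphoid barcodes. A Pyy UMI was present in 8.93% and 4.39% of other epithelial barcodes (median depths 17341 and 22761.5 UMIs) and in 3.47% and 1.30% of lymphoid barcodes (5253 and 4710). As summed levels these were 6.06 and 2.51 CPM in other epithelium and 6.13 and 2.51 CPM in lymphoid barcodes. The epithelial sum of library 1 includes 41 Pyy UMIs of 1 barcode. Chgb stood at 1.78 and 1.20 CPM in other epithelium and 2.81 and 1.85 in lymphoid barcodes. Sct differed: 4.54 and 8.98 CPM in other epithelium (exact 95% intervals 3.92 to 5.23 and 8.03 to 10.0) lay above 0.502 and 0.887 CPM in lymphoid barcodes (0.163 to 1.17 and 0.458 to 1.55). After thinning each barcode to 2000 UMIs, a Sct UMI remained in 1.01% and 1.57% of other epithelial barcodes and in 0.127% and 0.300% of lymphoid ones. Thinning left out 51 and 46 other epithelial and 98 and 209 lymphoid barcodes. The other epithelial barcodes held 52.2% and 41.9% of all Sct UMIs, with at most 25 in 1 barcode.

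**Figure D4:**
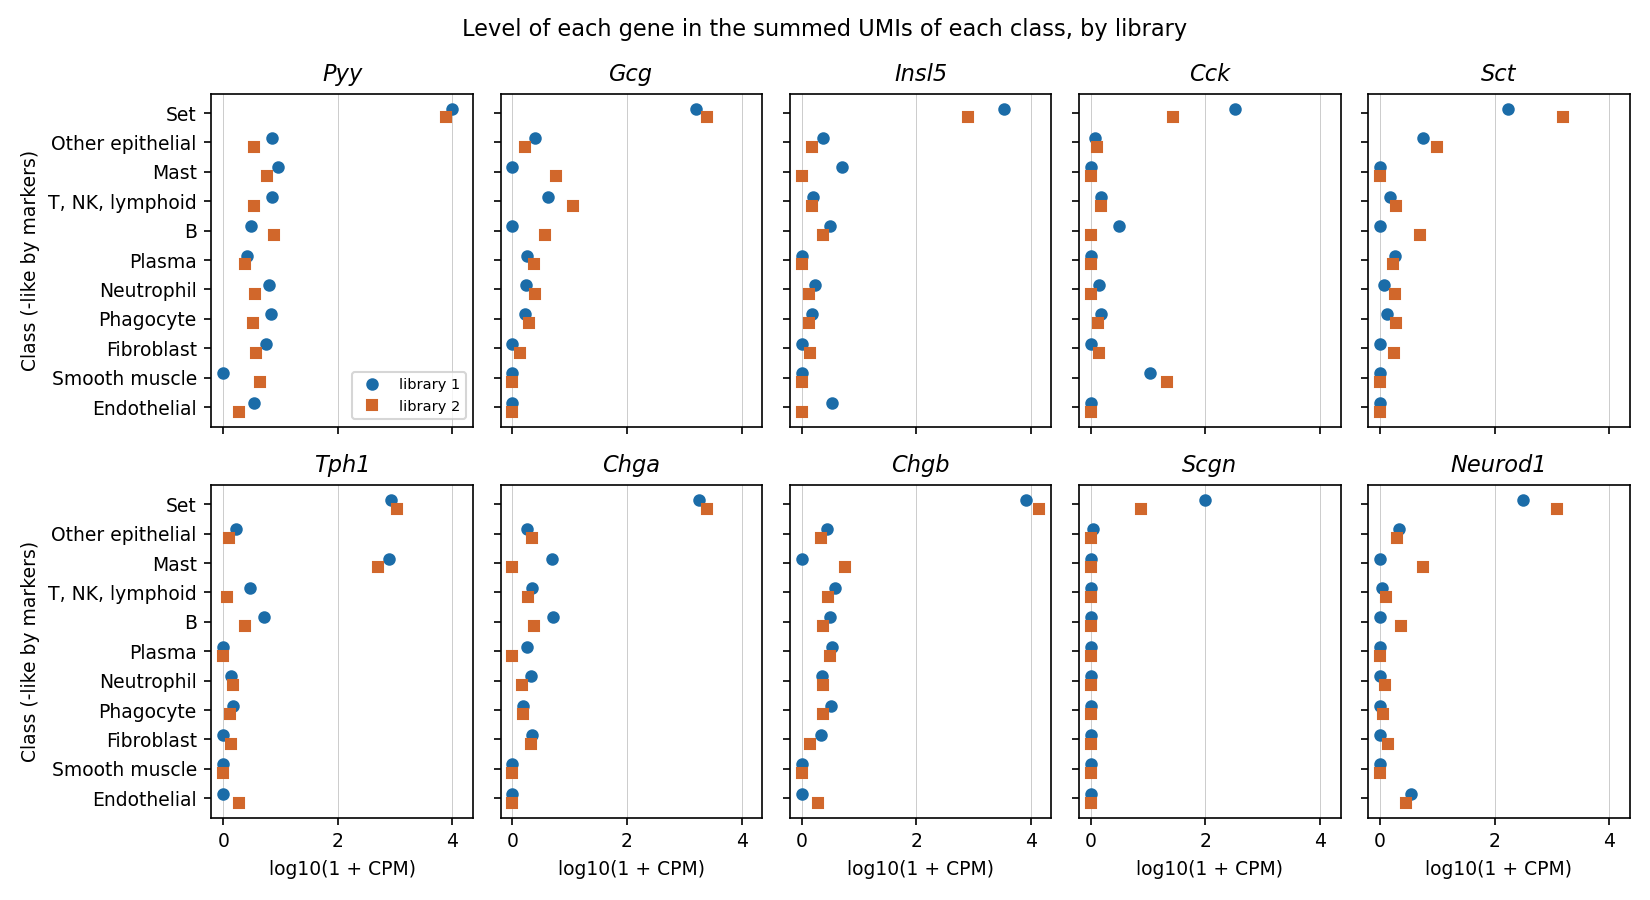
Level of each of the 10 genes in the summed UMIs of each class, as log10 of 1 plus CPM, with circles for library 1 and squares for library 2. The set lies to the right of the other classes for every gene. Mast cells come close to it for Tph1, and smooth muscle comes close for Cck in library 2. Sct is the gene for which the plotted level of other epithelium stands clear of the remaining classes in both libraries. Small classes have wide counting intervals. For Sct in B cells of library 2, 0.842 to 11.9 CPM covers the 8.98 CPM of other epithelium.

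Over the 11 classes, the set held the highest level of the 10 genes in both libraries, for Chga and Chgb by the rule. For Pyy, the highest of the 9 non-epithelial classes reached 7.98 and 6.80 CPM, within reach of the other epithelial level. For Gcg the second place in library 2 went to lymphoid barcodes at 10.4 CPM, where 122 of 140 UMIs came from 1 barcode of 7842 UMIs with 84 lymphoid marker UMIs and no Pyy or Insl5. Cck followed in smooth muscle, at 9.83 and 20.6 CPM from 3 and 6 UMIs, and in library 2 its exact 95% counting interval (7.56 to 44.8) overlapped that of the set (7.02 to 66.0). Scgn was at 0 UMIs in all 9 non-epithelial classes. Among the 9, the order of levels for genes other than Tph1 rests on a few UMIs and is not ranked here.

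Mast cells were the second place where Tph1 was found. Mast-like barcodes numbered 31 and 40 and held Tph1 at 770 and 494 CPM (193 and 105 UMIs), against 860 and 1100 CPM in the set. The counting intervals overlapped in library 1 (665 to 887 in mast cells, 799 to 925 in the set) and not in library 2 (404 to 598, and 942 to 1280). A Tph1 UMI was present in 11 of 31 and 21 of 40 of them, and 7 and 9 held 3 or more. In library 1 a single barcode held 120 of the 193 UMIs (62.2%), and without the top barcode the levels were 335 and 393 CPM. No mast barcode had Chga and Chgb summing to 5. In the edgeR test of each class against the mean of the other classes, Tph1 was higher in mast cells with a log2 fold change of 10.21 ± 0.34 (adjusted p = 2.26e-14), in a comparison that called 10.5% of 13838 genes higher. The remaining non-epithelial classes held Tph1 at 4.17 and 1.36 CPM or less. The gene could thus pass the count filter through mast cells and then only come out higher there, so this p-value is no independent support. Mast markers summed to 106 and 103 CPM in the set, against 44.8 and 42.7 in other epithelium, with 6 and 9 of the 11 at 0.

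Taking all epithelial barcodes as 1 class against the mean of the 9 others, 7 of the 10 genes passed the count filter and all 7 were higher in epithelium, where 36.5% of 13838 genes were. In that edgeR fit the log2 fold changes were 6.90 ± 0.21 for Chgb, 5.77 ± 0.41 for Sct, 5.71 ± 0.31 for Chga, 5.42 ± 0.61 for Gcg, 5.04 ± 0.23 for Pyy and 4.06 ± 0.48 for Tph1, with adjusted p of 4.51e-07 or lower. Cck was weakest at 3.63 ± 1.04 (edgeR adjusted p = 0.00574), and DESeq2 gave it 2.26 (adjusted p = 0.190). Leaving out library 1 lowered Gcg to 3.99 and Pyy to 3.74, and leaving out library 2 raised them to 8.14 and 6.64. Epithelium was not the only class called. Cck was also higher in smooth muscle (6.06 ± 1.59, edgeR adjusted p = 0.00717), from 3 and 6 UMIs. Gcg was also higher in lymphoid barcodes (3.24 ± 0.90, edgeR adjusted p = 0.00582), with 122 of 140 library 2 UMIs in 1 barcode. Tph1 was higher in mast cells than in epithelium by 5.54 ± 0.32 (edgeR adjusted p = 6.32e-11). Genes this low in most other classes could pass the count filter through the epithelial sum and then only come out higher. These p-values are therefore no independent support. Outside the set, epithelial barcodes stood no higher than lymphoid ones for Pyy (6.06 and 2.51 CPM against 6.13 and 2.51). The same held for Chgb (1.78 and 1.20 against 2.81 and 1.85), while Sct stood above (4.54 and 8.98 against 0.502 and 0.887).

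Genes for building and filling granules were higher in the set. Of 20 listed genes, 17 passed the filter on low counts and all 17 were higher by edgeR, where 8.88% of all genes were, with a median log2 fold change of 6.69 beside -0.14 for all genes. DESeq2 called 10 of the 17, and Resp18, Snap25, Scg3 and Rab3c, named next, were not among them. A gene that passed the filter through the set alone could only come out higher, here and in the lists below. Pcsk1n, encoding a prohormone convertase inhibitor, stood at 428 and 502 CPM against 0.190 and 1.53, a log2 fold change of 8.71 ± 0.49 (edgeR adjusted p = 2.43e-10). Resp18 reached 8.21, Snap25, a vesicle fusion gene, 7.35, Scg5 7.26 and Rab3c, a vesicle trafficking gene, 7.04. Their UMIs in other epithelial barcodes numbered 8 and 21 for Resp18, 3 and 82 for Snap25, 21 and 14 for Scg5 and 3 and 164 for Rab3c. The baseline of Snap25 and Rab3c thus differed between the libraries. Scg3, encoding a granin that binds chromogranin A, reached 9.20, from 61.8 and 277 CPM against 0.0238 and 0.335. Of library 2's set UMIs, the neuron-marked barcode held 39 of 50 for Scg2, 18 of 25 for Scg5, 14 of 20 for Resp18, 42 of 78 for Pcsk1n and 14 of 30 for Snap25. Without the barcodes marked as neuron and lymphoid, log2 fold changes were 8.01 for Pcsk1n, 7.79 for Resp18, 7.00 for Snap25 and 6.40 for Scg5. In that fit 16 of 17 were called, and Vamp2, a vesicle fusion gene, lost its call (edgeR adjusted p = 0.112).

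Transcription factors of the endocrine lineage followed. Of 20 listed, 17 passed the filter, 16 were higher and Foxa2 did not pass (0.41 ± 0.33, edgeR adjusted p = 0.435), with a median of 7.02, where 8.88% of all genes were higher. DESeq2 called 6, and not Neurog3. Etv1 reached 9.30 ± 0.45, from 126 and 296 CPM against 0.143 and 0.223. For factors with 1 to 3 UMIs in all other epithelial barcodes, the ratio of summed CPM is given with its counting interval: Isl1 2790 (929 to 13700), Lmx1a 2110 (557 to 17900), Fev 1900 (626 to 9440) and Pax6 1370 (352 to 11700). Lmx1a, known in enterochromaffin cells, was held by 20 set barcodes. Neurog3 itself reached 5.88 ± 0.70 from 41.6 and 554 CPM against 1.54 and 2.34.

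Genes of serotonin handling other than Tph1 were higher in part. Of 10 listed genes 9 were tested, 4 were higher, 1 was lower and 4 did not pass, with a median of 1.36, where 8.88% of all genes were higher and 15.4% lower. Slc18a1, the vesicular monoamine transporter of endocrine cells, stood at 82.0 and 103 CPM against 1.33 and 1.48 (log2 5.41 ± 0.55, edgeR adjusted p = 1.04e-06). Ddc, the decarboxylase that completes serotonin synthesis, stood at 384 and 605 CPM against 12.8 and 13.5 (4.53 ± 0.36, edgeR adjusted p = 1.12e-08). Maob was higher by 2.59 and the amino acid transporter gene Slc7a5 by 1.36. At a Chga and Chgb minimum of 10, Slc7a5 lost its call (0.77, edgeR adjusted p = 0.380). Maoa, which degrades serotonin, fell by 2.12, from 455 and 399 CPM in other epithelium to 178 and 83.7 in the set. Slc18a2, the monoamine transporter of mast cells and neurons, stood at 4.75 and 0 CPM against 0.736 and 1.12 and did not pass (edgeR adjusted p = 0.189).

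**Figure D5:**
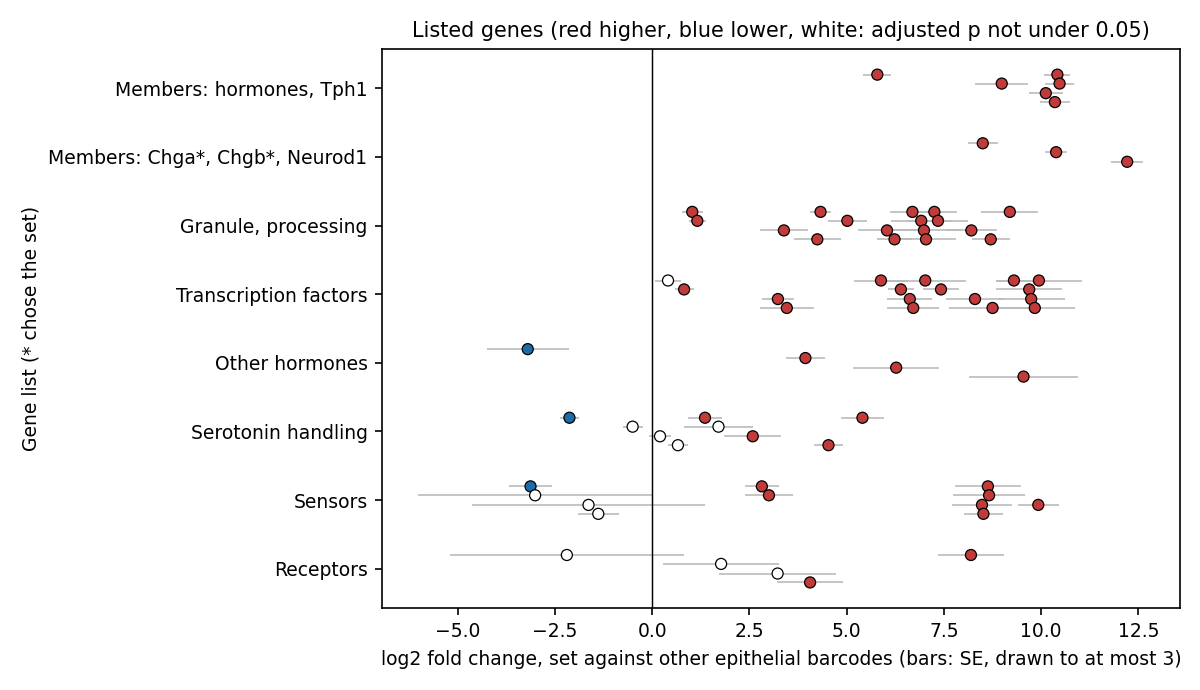
Log2 fold change of each tested gene of the lists, set against other epithelial barcodes. Bars give the SE (drawn to at most 3), with red for higher, blue for lower and white for adjusted p not under 0.05. Chga and Chgb are drawn in red with bars like the rest. They chose the set, so their colour is no test result. Granule and transcription factor genes lie to the right of 0, while serotonin handling genes, sensors and receptors are mixed.

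Sensors of nutrients, microbes and touch were mixed. Of 20 listed, 11 were tested, 7 were higher, 1 was lower and 3 did not pass, with a median of 3.00, where 8.88% of all genes were higher and 15.4% lower. DESeq2 called 4 higher, and neither Kcnb2 nor Olfr78. Piezo2, a mechanically gated channel gene, stood at 215 and 64.4 CPM against 0.143 and 0.0279 (log2 9.93 ± 0.53, edgeR adjusted p = 3.50e-11), with all 10 UMIs of library 2 in the lymphoid-marked barcode. Scn3a, a sodium channel gene, reached 8.52 and the potassium channel gene Kcnb2 8.48. Olfr78, a short-chain fatty acid receptor gene, reached 8.63, and Olfr558 gave a ratio of 652 (199 to 3370). Abcc8, a subunit gene of the ATP-sensitive potassium channel, was higher by 3.00, and Adra2a, the alpha-2A adrenergic receptor gene, fell by 3.13 on the log2 scale.

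Other gut hormones were too sparse for most tests. Of 14 listed, 4 passed the filter: Tac1, Nts and Penk were higher and Adm was lower, with a median of 5.11, where 8.88% of all genes were higher and 15.4% lower. Tac1 stood at 284 and 1930 CPM against 42.6 and 32.1 (log2 3.94 ± 0.49, edgeR adjusted p = 3.18e-06). All 83 Nts UMIs of the set were in the peptide barcode of library 2. All 231 Penk UMIs of the set were in the neuron-marked barcode, and without the barcodes marked as neuron and lymphoid Penk lost its call (edgeR adjusted p = 0.595). Adm fell by 3.20 on the log2 scale, from 22.1 and 16.4 CPM to 3.56 and 0, and lost its call with no doublets removed (edgeR adjusted p = 0.0686), at a Chga and Chgb minimum of 10 (0.0703) and with library sizes alone. Gip and Gast had no UMI in either library.

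Receptors for these hormones were sparse everywhere. Of 20 listed genes, 5 were tested in the set and 2 were higher, with a median of 3.23, where 8.88% of all genes were. Npy1r, a receptor gene for peptide YY, stood at 35.6 and 90.2 CPM in the set against 2.83 and 0.949 (log2 4.06 ± 0.85, edgeR adjusted p = 0.00136), with 7 of the 14 UMIs of library 2 in the neuron-marked barcode. Glp1r, the receptor gene for glucagon-like peptide 1, was held by 6 set barcodes at 39.2 and 6.44 CPM and gave a ratio of 886 (279 to 4510). That ratio is to other epithelial barcodes alone. Of 173 and 63 Glp1r UMIs in the libraries, the set held 33 and 1 and other epithelial barcodes 2 and 1. Most Glp1r UMIs thus lay in other barcodes. Among the classes, Npy1r peaked in smooth muscle in library 1 (170 CPM), Glp2r peaked in smooth muscle in both (19.7 and 20.6), and the serotonin receptor gene Htr7 peaked in mononuclear phagocytes in both (44.4 and 44.1). Htr4 peaked in the set, at 8.32 and 6.44 CPM from 7 UMIs and 1. Htr2b peaked in endothelium in library 1 (24.2 CPM) and in the set in library 2 (25.8, from 4 UMIs, 3 of them in the neuron-marked barcode), Htr3a was found in library 2 alone (36 UMIs), and Htr2a had 7 and 29 UMIs. The relaxin family receptor gene Rxfp4, whose ligand is insulin-like peptide 5, had 0 and 1 UMI.

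Outside the lists, the largest rises included neuronal and vesicle genes. Here too, a gene with few UMIs in other epithelium could pass the count filter through the set and then only come out higher. Slc38a11, an amino acid transporter gene, stood at 93.9 and 161 CPM with 1 UMI in all other epithelial barcodes, a ratio of 8130 (1430 to 324000). Runx1t1, Ooep, Cacna1h and Fam183b reached 9.29, 9.16, 9.11 and 9.07, and Map1b, Pclo and Cryba2 reached 8.18, 8.12 and 7.99. The neurofilament genes Nefm and Nefl gave ratios of 2580 (858 to 12700) and 1990 (524 to 16900), where the neuron-marked barcode held 17 and 32 of the 22 and 33 UMIs of library 2's set. Without that barcode and the lymphoid-marked one, Nefl did not pass the filter and the other 9 of these 10 genes were again called. DESeq2 called 5 of the 10, and not Slc38a11 (adjusted p = 0.169), Nefm (0.248), Fam183b (0.196), Pclo (0.423) or Cryba2 (0.402). Genes with no UMI in the set were led by Bglap3 and Creb3l3, at least 14.7-fold and 13.1-fold lower by a floor of 3 UMIs over both libraries, then Csta1, Abca12 and Cxcl5, at least 9.61-fold, 6.26-fold and 6.06-fold lower.

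Over the 22 class sums, log2(CPM + 1) of Fam183b (Pearson r = 0.975), Cacng4 (0.973) and Spock1 (0.973) ran closest to that of Pyy. For Tph1 the closest were Slc35d3 (0.935), Pcyt1b (0.921) and Rprm (0.902). These are descriptions over 11 classes in 2 libraries, in which Pyy was high in the sums of the set alone.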

How the data were processed

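The deposited matrices hold raw UMI counts per gene and barcode, made by the authors with Cell Ranger 7.0.0 per the file headers, while the submitters' processing notes name Cell Ranger 8.0.0 and mm10. The labels' protocols name a V3 kit for cell capture but v2 reagents for the 3' libraries, so the chemistry is unsettled. The protocol aimed at 5000 cells per library. Of 55357 gene IDs, 52081 were found in GENCODE M21.

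Barcodes were kept with at least 200 genes and under 20% mitochondrial UMIs, which removed 36 and 9, then 876 and 484 barcodes. The highest Scrublet scorers, at 0.8% per 1000 barcodes, were removed as doublets (262 and 666). Both libraries were clustered together in scanpy 1.11.5 (10000 counts per cell, 2000 variable genes, 30 components, 15 neighbours, Leiden resolution 1.0), with the members and all listed genes held out, and clusters were named from marker lists. Clusters that stayed unnamed were clustered again alone. That step and part of the naming rules were set after the clusters were seen, so shares depend on rebuilt names. Unnamed were 133 and 138 barcodes.

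Counts were summed per library and class and tested with edgeR 4.0.16 in R 4.3.3 (TMM, filterByExpr, quasi-likelihood test, Benjamini-Hochberg adjustment over all genes tested, threshold 0.05), with library as blocking factor, because 1 suspension gave all the sums of a library. The fit with the set held 22 sums of 11 classes (10 residual degrees of freedom), and the class fit 20 sums of 10 classes (9). The design asked for 10 set barcodes in each library, and library 2 held 7, so the first of these fits was added after seeing the data, as were the results without Reg3b-rich barcodes, without barcodes marked as neuron or lymphoid, and over any barcode, the floor of 3 UMIs between peptide and serotonin barcodes, and the thinned chi-square. SEs of the edgeR fits were derived from each fold change and its quasi-likelihood F statistic. CPM in the text are raw counts over summed UMIs. On counts simulated for the set comparison over 13851 genes, edgeR recovered 26 of 100 genes changed 2-fold and 70 of 100 changed 4-fold, and called 29 unchanged genes. Those 29 are a larger share of the calls than the threshold of 0.05 allows. Counts of called genes may therefore hold more false calls than that threshold states. DESeq2 1.42.0 was an alternative. The lowest levels rest on a few UMIs, for which exact intervals are given where they bear on a result.

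Named were all members, up to 6 called genes of each other list by size, the 10 largest rises and 5 largest falls outside the lists, the 3 genes most like Pyy and Tph1, up to 8 genes each way between peptide and serotonin barcodes, and receptors with 20 or more UMIs. Sst, Ppy, Gip, Gast, Rxfp4, Slc18a2 and Foxa2, and also Scg2 in its list, were named after their values were seen. A listed gene that the rule names is not reported here. The members and lists were chosen with earlier results of these data known.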

Additional observations from a re-analysis of the deposited data

Results flagged for a closer look

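Among barcodes removed or left unnamed, which enter no comparison above, library 2 held the members at high counts. A single barcode removed by its Scrublet score held Pyy at 1712 UMIs, Gcg at 683, Insl5 at 476, Cck at 286, Sct at 111 and Scgn at 10, more Pyy than the peptide barcode of that library. Another removed barcode held Tph1 at 134 UMIs, Chga at 208 and Chgb at 325, and 1 more held Neurod1 at 16. In library 1 the highest such value was Chgb at 27 UMIs, in a removed barcode with Reg3b above 2% of UMIs. Each value lies above the 3 UMIs that a count of 0 allows. Whether these barcodes held 1 cell or more was not tested.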

How the results depend on the processing

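The 7 tested members stayed higher in the set under every alternative with a test (DESeq2, library sizes alone, no count filter, no replicate block, other Chga and Chgb minimums, no doublets removed, and without the Reg3b-rich or otherwise marked barcodes). Without the replicate block, 7 members, 1151 higher genes and 1965 lower genes were called, and the block changed no member's call. Leaving out a library (no test possible) gave 7 to 32 set barcodes, 1 to 3 peptide barcodes, 3 to 11 serotonin barcodes, 1 to 3 with Pyy and Gcg, 1 to 2 with Pyy and Insl5, and a Tph1 log2 fold change of 10.47 to 11.08 in mast cells. The low ends are library 2 alone. Calling epithelium by marker UMIs with no Ptprc UMI left 24 set barcodes and 7 with Tph1, where the cause was not tested. At 1 UMI per hormone, 7 barcodes held a peptide hormone and 2 held both kinds, and at 10 UMIs Pyy and Gcg shared 2. Library sizes alone gave 2860 higher and 1011 lower genes. The median over all genes was 0.41 with library sizes alone, 0.11 with DESeq2, -0.42 without the filter and -0.27 at a Chga and Chgb minimum of 10, so folds are read against that shift. DESeq2 called 10 granule genes, 6 transcription factor genes and 4 sensor genes higher. With no filter, 7 other hormones and 5 receptors were higher and 2 sensors lower. With no doublets removed, 2 sensors were lower. Other hormones called lower numbered 0 with library sizes alone, with no doublets removed and at the minimum of 10. Set values of Pyy, Gcg and Insl5 at 3 UMIs or more rest on 4 barcodes.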

Other observations

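Outside the set, hormone and granule gene UMIs did not always share a barcode. An epithelial barcode of library 1 held Pyy at 41 UMIs, Gcg at 27 and Insl5 at 20 with Chgb at 1, out of 23267 UMIs. An unnamed barcode of library 2 with 551 UMIs held Pyy at 30, Gcg at 34 and Insl5 at 15, with no Chga or Chgb. A lymphoid barcode of library 1 held Gcg at 11 UMIs with no Pyy or Insl5, as did the one of library 2 with 122. An unnamed barcode of library 2 held Chgb at 83 UMIs out of 1962 with no hormone but 1 UMI of Cck.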
